A study of Homo sapiens with 4 samples.

Results

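The genes described here are PTX3, C3 and 7 further complement genes (C1R, C1S, CFB, CFI, CD46, CD55 and CD59). They were taken as the probe sets whose only annotated symbol is 1 of these 9, which gave 20 probe sets of the 54675 on the array and 9 genes of the 19775 with a symbol of their own. They were chosen partly on the differences that these arrays had already shown with TGF-beta and between the labels, PTX3 and C3 above all. Their differences are therefore a description, and no p-value is given. The cells are SCP2, a human breast cancer line known as a bone-colonising progeny of a single MDA-MB-231 cell. Total RNA was profiled from 4 groups with 1 array each: cells overexpressing DLC1 and treated with TGF-beta, cells overexpressing DLC1 without treatment, vector control cells treated with TGF-beta, and untreated vector control cells. All 4 groups share the line, and each carries either the DLC1 construct or its vector. DLC1 is known as a tumour suppressor gene, and TGF-beta is a cytokine that bone matrix stores. The promoter of the construct, and how much TGF-beta was given for how long, are not stated in the sources used here.

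Complement is a cascade of plasma and tissue proteins that marks surfaces for uptake and can perforate membranes. The proteases C1r and C1s start the classical pathway, factor B supplies the protease of the alternative pathway, and both pathways meet at the cleavage of C3. Factor I, with CD46 as its cofactor, inactivates cleaved C3, CD55 takes convertases apart and CD59 blocks the membrane attack complex. PTX3 is a secreted long pentraxin, a pattern recognition protein that binds C1q and factor H. The liver makes most plasma complement, and epithelial cells and fibroblasts are known to make some of it after inflammatory cytokines.

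Promoters are shown for the member that was lower with TGF-beta, PTX3, and for CFB, which was higher in both arrays labelled DLC1. Each run is the 250 bases before the RefSeq start site on the plus strand of GRCh38.p14, at chr3:157436600-157436849 for PTX3 and at chr6:31945845-31946094 for CFB. Capitals mark matches to 6 motifs searched on both strands, AP-1 (TGANTCA), STAT (TTCNNNGAA), C/EBP (TTGCNNAA), SMAD (CAGACA), the interferon-stimulated element and NF-kappaB.
PTX3: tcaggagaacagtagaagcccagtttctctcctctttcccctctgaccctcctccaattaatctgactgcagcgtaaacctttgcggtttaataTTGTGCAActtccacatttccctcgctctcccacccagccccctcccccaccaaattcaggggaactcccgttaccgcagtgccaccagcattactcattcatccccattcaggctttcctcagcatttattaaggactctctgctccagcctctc
CFB: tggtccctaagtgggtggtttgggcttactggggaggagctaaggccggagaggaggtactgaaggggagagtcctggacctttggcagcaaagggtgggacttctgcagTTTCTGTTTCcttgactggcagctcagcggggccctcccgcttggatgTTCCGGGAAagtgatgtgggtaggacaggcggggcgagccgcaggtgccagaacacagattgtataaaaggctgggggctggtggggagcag
The capitals in PTX3 are a C/EBP match on the opposite strand that begins 156 bases before the start site. A match of this kind occurred in 9.05% of the 35097 promoters of the RefSeq table. In CFB the first run is an interferon-stimulated element at 140 bases before the start site, on the opposite strand, a motif held by 3.02% of promoters. The second is a STAT match at 92 bases before the start site, held by 6.56%. The marked motifs do not overlap each other. The AP-1 and SMAD letters given above were not in either window, nor was the single NF-kappaB spelling searched, which is not given here. Sites spelled otherwise were not searched, so their absence is not shown. A match is a description of letters, and no binding was measured. At some of their start sites C1R and CD59 also held STAT and C/EBP matches, and CD59 held AP-1 matches. CFI, CD46 and CD55 held none of the motifs searched. C3 and C1S have no entry in the promoter table.

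The DLC1 transcript was read first, because it bears on the labels. Its brightest probe set, 210762_s_at, read 3.64 in the array labelled DLC1 against 2.51 in the vector array with TGF-beta, and 3.38 against 1.77 without it, in arbitrary linear units. The probe set 224822_at read the other way, 1.69 against 2.41 with TGF-beta and 1.44 against 1.79 without it. The dim 220512_at, kept only through the vector array with TGF-beta, also read the other way, 0.19 against 0.41 with TGF-beta, past 2-fold, and 0.18 against 0.26 without it. Thus 1 of the 3 kept sets went with the label and 2 went against it. The transcript does not settle the labels, and "arrays labelled DLC1" is used throughout for this reason. The median intensity was 0.38 or 0.39 on every array. Of the breast cancer line markers of the mesenchymal type, VIM read between 160.3 and 205.05 and the dimmest, KRT8, between 6.25 and 8.06. The luminal markers were mixed. ESR1 read between 0.39 and 0.46, and PGR and CDH1 were dimmer still. EPCAM read between 5.76 and 7.45 and GATA3 between 3.0 and 4.59. The leukocyte gene PTPRC read between 0.15 and 0.29 and the hepatocyte gene ALB between 0.13 and 0.15, both below the median of all values. Other markers of these cell types were above it. The leukocyte marker LAPTM5 read between 5.4 and 9.53 and the hepatocyte marker TTR between 0.92 and 1.03.

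A difference is the log2 ratio of 2 arrays, and a gene was called higher or lower when it differed by at least 2-fold. A gene was represented by its brightest probe set and kept if any of its 4 values was at least 0.38, which is the median over the whole table. All 9 members were kept, as were 13136 genes in all. CFI was kept only through the arrays labelled DLC1, where it was higher. Of the 20 probe sets, 17 were kept, and the dim second sets of C1S, CFB and CFI were not. Each value comes from a single array, so the number of arrays limits the precision, and the spread between cultures is unknown.

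PTX3 read lowest in the array that combined both labels. It read 11.0 in the TGF-beta array labelled DLC1, 26.7 in that without treatment, 20.41 in the vector array with TGF-beta and 73.28 in the untreated vector array. The order is thus untreated vector, then DLC1 alone, then TGF-beta alone, then both. Since the arrays labelled DLC1 span 11.0 to 26.7 and the vector arrays 20.41 to 73.28, the backgrounds overlap unless they are compared at the same TGF-beta state. In RNA from a whole culture, fewer cells that express a gene and less RNA per cell cannot be told apart.

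With TGF-beta, PTX3 was 2.43-fold lower in the arrays labelled DLC1 and 3.59-fold lower in the vector arrays. These are log2 differences of -1.28 and -1.84. In each background PTX3 held the 6th lowest place among the 13136 genes. It was the 1 member of the 9 called lower after TGF-beta under the DLC1 label, where 0.107% of all kept genes were called lower, and the 1 called lower in the vector arrays, where 0.693% were. No member was called higher with TGF-beta, beside 0.792% of genes in the arrays labelled DLC1 and 1.21% in the vector arrays. In both backgrounds together 0.0609% of genes were called lower.

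In the array labelled DLC1, PTX3 was 1.86-fold lower than in the vector array with TGF-beta and 2.74-fold lower without it, which are log2 differences of -0.89 and -1.46. The first misses the 2-fold line and the second passes it. The interaction, the TGF-beta difference under the DLC1 label less that under vector, was 0.56 on the log2 scale, short of 2-fold. The array with both labels read 6.66-fold below the untreated vector array.

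C3, the central component on which both pathways converge, had the largest difference of the members between the backgrounds. Its single probe set read 7.04 in the array labelled DLC1 against 1.68 in the vector array with TGF-beta, and 9.19 against 1.95 without TGF-beta. Both arrays labelled DLC1 lay above both vector arrays. The differences were 4.19-fold and 4.71-fold, and they ranked 10th and 9th from the highest among 13136 genes. With TGF-beta C3 differed by -0.38 in the arrays labelled DLC1 and by -0.22 in the vector arrays on the log2 scale, within 2-fold in both.

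CFB, the alternative pathway protease, was the other member called higher in both states. It read 2.56 in the array labelled DLC1 against 1.21 in the vector array with TGF-beta, a 2.12-fold difference. Without TGF-beta it read 3.21 against 1.1, a 2.92-fold difference. The second CFB set, 211920_at, stayed between 0.22 and 0.29 on all arrays, below the filter, and gave log2 differences of -0.16 with TGF-beta and 0.40 without it. With both CFB sets averaged, CFB gave 0.46 with TGF-beta and 0.97 without it, and neither was called.

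**Figure D1:**
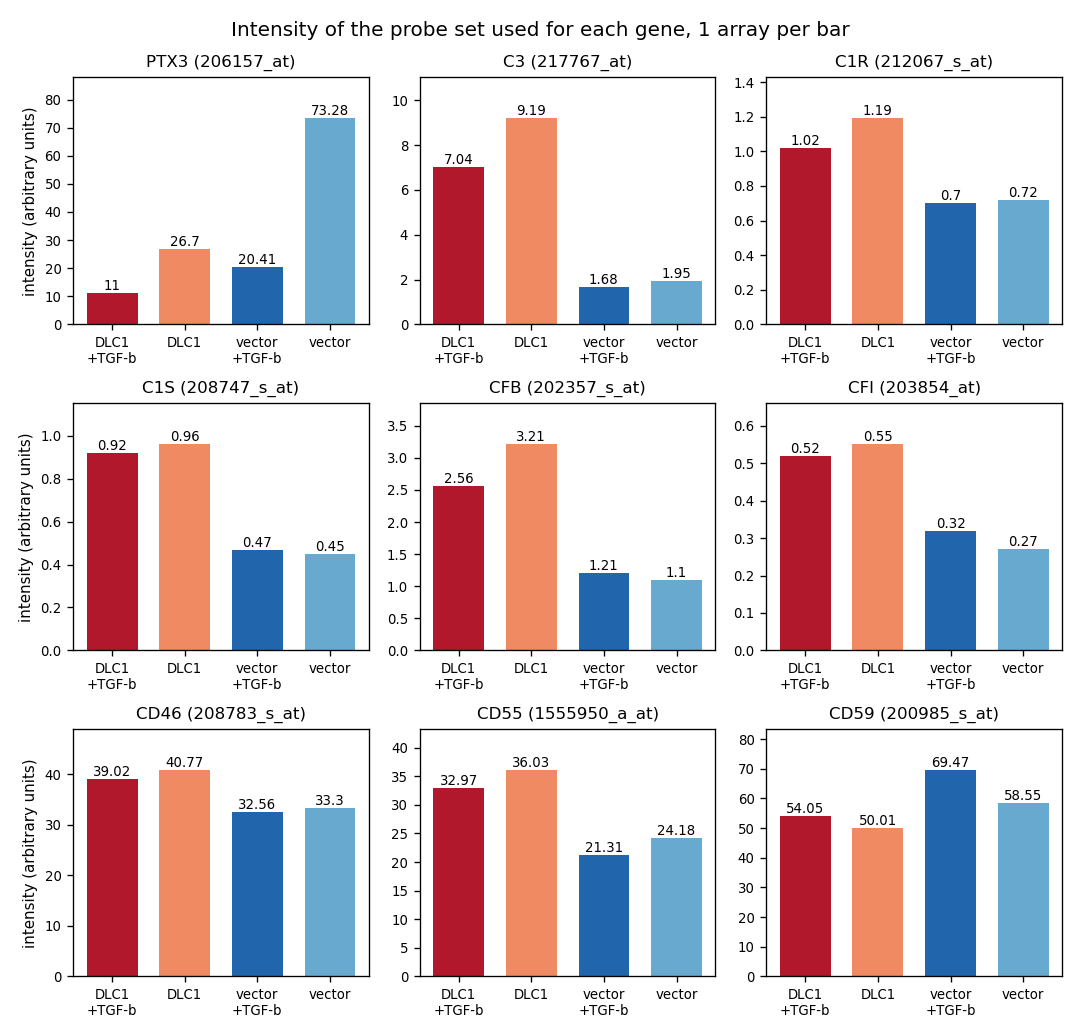
Intensity in arbitrary linear units (vertical axis, from 0, with its own scale in each panel) of the probe set used for each of the 9 genes, with 1 bar per array and its value above it. PTX3 is lowest at 11.0 in the array labelled DLC1 with TGF-beta and highest at 73.28 in the untreated vector array, and both C3 bars of the arrays labelled DLC1, 7.04 and 9.19, stand above the vector bars of 1.68 and 1.95.

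The proteases of the C1 complex read higher in the arrays labelled DLC1, C1S by more than C1R. C1S read 0.92 in the array labelled DLC1 against 0.47 in the vector array with TGF-beta, and 0.96 against 0.45 without it, which are 1.96-fold and 2.13-fold differences. C1R read 1.02 against 0.7 with TGF-beta and 1.19 against 0.72 without it, differences of 1.46-fold and 1.65-fold that were not called. In neither gene did the arrays of the 2 backgrounds overlap. C1S and C1R are neighbours on chromosome 12 in the RefSeq table of GRCh38.p14, with C1RL, which encodes a C1r-like protease, as the next protein-coding gene. C1RL read 0.84 against 0.47 with TGF-beta and 0.89 against 0.59 without it. Its log2 differences of 0.84 and 0.59 were within 2-fold. The dim second set of C1S, 1555229_a_at, read between 0.09 and 0.11 on all arrays, and no difference was detectable at this brightness.

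CFI, the protease that inactivates cleaved C3, was dim. It read 0.52 in the array labelled DLC1 against 0.32 in the vector array with TGF-beta, and 0.55 against 0.27 without it. The differences were 1.62-fold and 2.04-fold. The deposited values have 2 decimals, and the rounding alone allows the second to be 0.99 on the log2 scale, just short of 2-fold. The call for CFI is therefore a borderline one. With 0.1 added before log2, or with both sets of a gene averaged, neither C1S nor CFI was called without TGF-beta, and their log2 differences were as low as 0.55 and 0.61.

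Over the 9 members, 2 were called higher with TGF-beta in the array labelled DLC1, C3 and CFB, and 4 without it, C3, CFB, C1S and CFI. Among all kept genes 1.46% were called higher with TGF-beta and 1.63% without it. In both states together C3 and CFB were called higher, beside 0.868% of genes. PTX3 alone was called lower without TGF-beta, beside 2.34% of genes, and no member was called lower with it, beside 1.64%. The members' median log2 difference was 0.63 with TGF-beta and 0.72 without it, and that of all kept genes was -0.02 and -0.03. The same contrasts were in view when the members were picked, and these shares and medians are given as background alone.

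**Figure D2:**
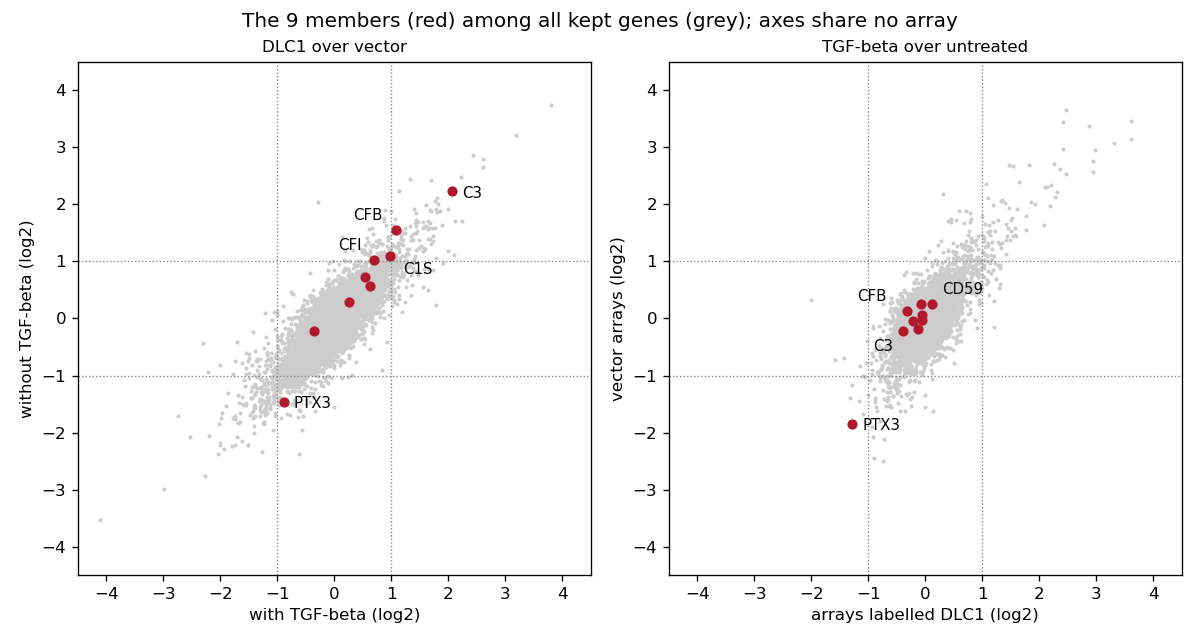
Log2 differences of the 9 members (red) and of all 13136 kept genes (grey), for the arrays labelled DLC1 over vector (left, with TGF-beta on the horizontal axis and without it on the vertical) and for TGF-beta over untreated (right, arrays labelled DLC1 on the horizontal axis and vector arrays on the vertical). Dotted lines mark 2-fold. C3 lies at 2.07 and 2.24 on the left, and PTX3 lies at -1.28 and -1.84 on the right, while the other members lie within 2-fold on the right.

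The membrane regulators differed less, and not all the same way. CD55, which takes convertases apart, was higher in the arrays labelled DLC1 in all 3 of its probe sets. The set used for the gene, 1555950_a_at, read 32.97 in the array labelled DLC1 against 21.31 in the vector array with TGF-beta, and 36.03 against 24.18 without it. The sets 201925_s_at and 201926_s_at gave 1.73-fold and 1.56-fold differences with TGF-beta and 1.60-fold and 1.54-fold without it. The 3 sets lay between 0.58 and 0.79 on the log2 scale over both states, so none was called, and in each of them both arrays labelled DLC1 lay above both vector arrays.

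CD46, the cofactor of factor I, was also higher in all 3 of its probe sets, but by unequal amounts. The bright set, 208783_s_at, read 39.02 against 32.56 with TGF-beta and 40.77 against 33.3 without it, differences of 1.20-fold and 1.22-fold. The dimmer 207549_x_at read 3.18 against 2.32 with TGF-beta and 3.55 against 1.95 without it, and 211574_s_at read 3.08 against 2.21 and 3.33 against 1.87. Without TGF-beta these 2 gave 1.82-fold and 1.78-fold. Their TGF-beta differences were -0.16 and -0.11 under the DLC1 label and 0.25 and 0.24 under vector, all within 2-fold. The size of the CD46 difference thus depends on the probe set, and the mark _x_ in a set's name warns that some of its probes can match other transcripts.

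CD59, the inhibitor of the membrane attack complex, leaned the other way in its brightest sets. The set 200985_s_at read 54.05 in the array labelled DLC1 against 69.47 in the vector array with TGF-beta, and 50.01 against 58.55 without it. The differences were 1.29-fold and 1.17-fold lower, and the arrays of the backgrounds did not overlap. Over its 5 sets the log2 differences ran between -0.56 and 0.08 with TGF-beta and between -0.40 and 0.09 without it. The sets 212463_at and 228748_at crossed 0, so no direction holds for every CD59 set.

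With TGF-beta, all 5 CD59 sets were above 0 in each background, between 0.11 and 0.46 in the arrays labelled DLC1 and between 0.25 and 0.44 in the vector arrays. CD55 was below 0 in all 3 sets, between -0.20 and -0.13 in the arrays labelled DLC1 and between -0.32 and -0.18 in the vector arrays. All were far from 2-fold. Centring the arrays on 11 housekeeping genes, which moved the median of all genes by -0.18 in the arrays labelled DLC1 and by -0.10 in the vector arrays, turned the sign of the CD59 set used in the arrays labelled DLC1, to -0.07. The median of the 9 members with TGF-beta was -0.13 in the arrays labelled DLC1 and -0.03 in the vector arrays, and that of all kept genes was -0.01 and -0.03.

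**Figure D3:**
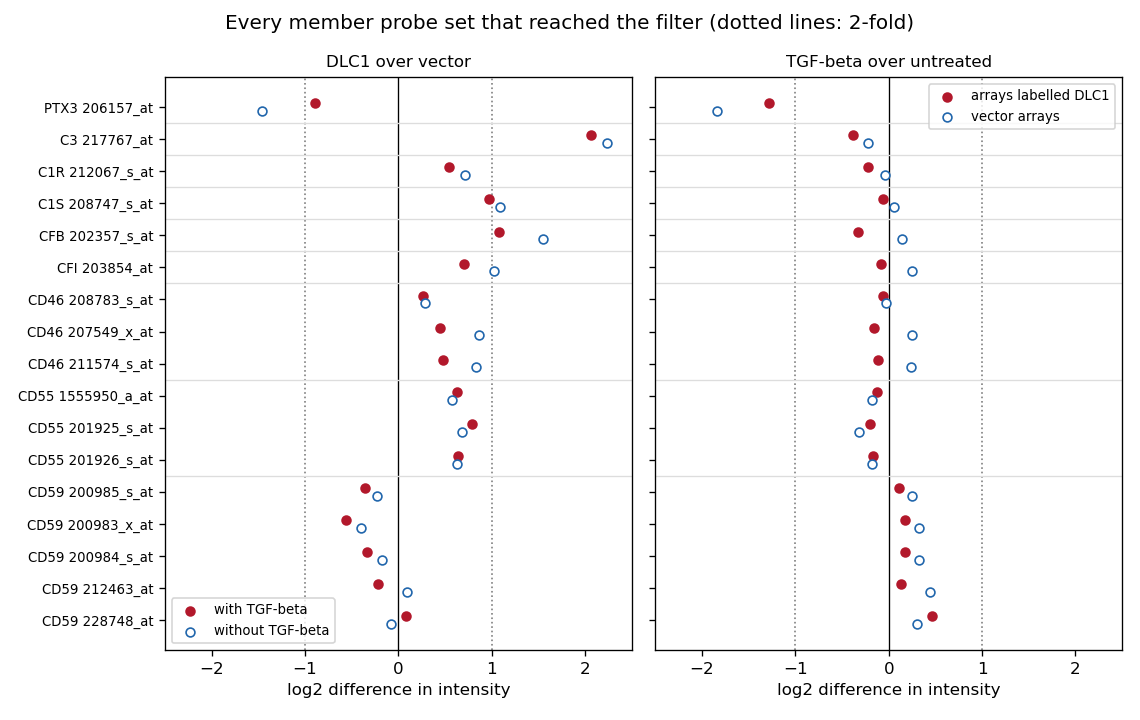
Log2 difference in intensity (horizontal axis) of the 17 member probe sets that reached the filter, for the arrays labelled DLC1 over vector (left) and TGF-beta over untreated (right). Filled and open points are the states or backgrounds named in each key, and dotted lines mark 2-fold. The 3 sets of CD55 fall between 0.58 and 0.79 on the left, and the sets of CD59 fall on both sides of 0.

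Without a size rule, both arrays labelled DLC1 lay above both vector arrays in 7 members (C3, CFB, C1S, C1R, CFI, CD55 and CD46) and below them in 1 (CD59). Of all kept genes, 28.7% lay above and 33.1% below in the same way, so this separation by itself is common on these arrays. PTX3 was the member whose arrays overlapped. The interaction was called in no member, and among all genes 0.19% were called above 0 and 0.175% below 0. It ran from -0.46 for CFB to 0.56 for PTX3.

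The rest of the complement system was read from a list of 48 genes, of which 41 have a probe set and 16 were kept. None of the 16 was called in the arrays labelled DLC1 over vector in either state, nor with TGF-beta in either background. Of all kept genes 0.107% to 2.34% were called in any 1 direction of these comparisons, so a count of 0 among 16 is near the background. Between the backgrounds, 8 of 16 lay above 0 with TGF-beta and 10 without it, with medians of -0.01 and 0.16. COLEC11 was kept only through the arrays labelled DLC1 and MASP2 only through the vector arrays, each where it was higher. With no filter on dim genes, the median without TGF-beta was 0.0. The genes nearest to 2-fold were C5, which encodes the component cleaved after C3, at 0.94 with TGF-beta and 0.67 without it, and C3AR1, the receptor of the C3a fragment, at -0.97 with TGF-beta in the vector arrays. C5 read 0.77 in the array labelled DLC1 against 0.4 in the vector array with TGF-beta, and 0.92 against 0.58 without it. C3AR1 read 0.41 with TGF-beta and 0.47 without it under the DLC1 label, and 0.43 and 0.84 in the vector arrays. With TGF-beta, the list lay below 0 for 13 of 16 genes in the arrays labelled DLC1 and for 11 in the vector arrays, with medians of -0.20 and -0.14. Of all kept genes, 52.1% and 54.8% lay below 0 in the same comparisons, with medians of -0.01 and -0.03.

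The brightest of these genes were C1QBP and C4BPB. C1QBP, which encodes a mainly mitochondrial protein able to bind C1q, read 53.0 in the array labelled DLC1 against 69.32 in the vector array with TGF-beta, and 65.4 against 82.49 without it. C4BPB, the beta chain of C4b-binding protein, a soluble inhibitor, read 15.5 against 11.57 with TGF-beta and 20.15 against 18.12 without it. The alpha chain gene C4BPA read between 0.54 and 0.6 on all arrays. C2, the classical counterpart of CFB, read 0.61 against 0.52 with TGF-beta and 0.6 against 0.52 without it. SERPING1, which encodes the inhibitor of C1r and C1s, read 0.45 against 0.4 and 0.52 against 0.44.

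**Figure D4:**
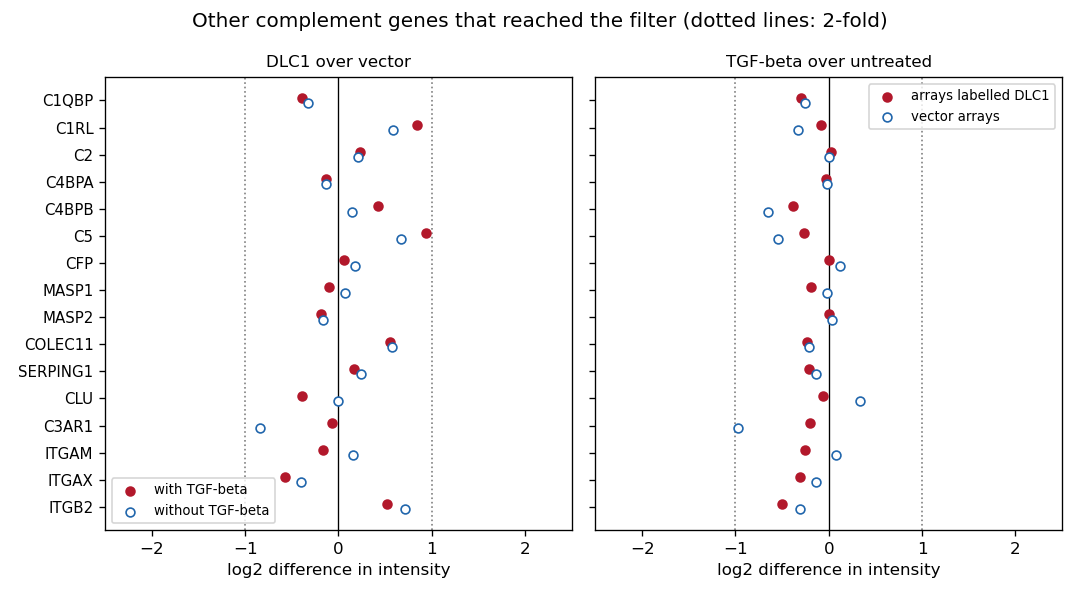
Log2 difference in intensity (horizontal axis) of the 16 other complement genes that reached the filter, for the arrays labelled DLC1 over vector (left) and TGF-beta over untreated (right), with dotted lines at 2-fold. No point lies past 2-fold, and the farthest is C3AR1 at -0.97 in the vector arrays on the right.

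The relatives of PTX3 gave little signal. Of 7 pentraxin genes 5 have a probe set, and only PTX3 and NPTXR, which encodes a neuronal pentraxin receptor, were kept. NPTXR read between 0.85 and 0.95 on all arrays. CRP, the short pentraxin of the liver, read between 0.15 and 0.19. Of 19 acute phase genes, which are those that inflammation raises or lowers in plasma and tissue, 15 have a probe set and 6 were kept. LCN2, an iron-carrier gene, read 6.28 in the array labelled DLC1 against 1.03 in the vector array with TGF-beta, and 8.21 against 1.18 without it. It was called higher in both states. A2M, a protease inhibitor gene, read 0.55 against 0.3 with TGF-beta and 0.85 against 0.25 without it, and was called without TGF-beta alone. IL1RN, the interleukin-1 receptor antagonist gene, was kept only through the untreated arrays, where it was higher. It read 0.29 with TGF-beta and 0.6 without it in the vector arrays, and was called lower there at -1.05. That call was lost with 0.1 added before log2, with the mean of a gene's probe sets and with the filter at the 75th percentile. Under each of the last 2 settings, 1 gene of this list was called higher between the backgrounds without TGF-beta, in place of 2. Without these changes, 1.63% of all kept genes were called higher between the backgrounds without TGF-beta and 1.46% with it. In the vector arrays 0.693% were called lower with TGF-beta. CD14, a co-receptor for bacterial lipopolysaccharide, read 1.08 against 1.16 with TGF-beta and 1.49 against 1.67 without it, and HPX, the hemopexin gene, read 0.6 against 0.6 and 0.5 against 0.7. Over the 6 kept genes the median between the backgrounds was 0.43 with TGF-beta and 0.32 without it, but with no filter on dim genes it was -0.10 and -0.06, so no direction is read for this list. A2M and another of the 6, SERPINA1, were kept only through the arrays labelled DLC1, where they were higher.

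The genes most like PTX3 were found by the distance between 4 log2 values, each gene centred on its own mean, over 13135 other genes and the 4 arrays. They were PAG1 at 0.44, CAVIN2 at 0.45, LY6K at 0.48, FLG at 0.62 and SHISA2 at 0.71. PAG1, which encodes a membrane adaptor protein, read 1.71 and 3.14 in the arrays labelled DLC1 with and without TGF-beta, and 2.77 and 7.56 in the vector arrays. SHISA2 read 4.23 and 6.28 in the arrays labelled DLC1 and 8.75 and 19.91 in the vector arrays. All 5 were lowest with both labels and highest in the untreated vector array, as the measure favours, and FLG read as little as 0.15. FLG was kept only through the untreated vector array, where it was highest.

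The genes most like C3 were TMEM178A at 0.30, CD24 at 0.31, TNFSF13B and DCHS1 at 0.40 each and SDF2L1 at 0.41. CD24, a surface glycoprotein gene, read 6.95 and 10.63 in the arrays labelled DLC1 with and without TGF-beta, and 2.16 and 1.98 in the vector arrays, in a set of the _x_ kind. SDF2L1, a chaperone component gene of the endoplasmic reticulum, read 25.83 and 26.99 in the arrays labelled DLC1 and 7.32 and 6.69 in the vector arrays. TNFSF13B, which encodes the B cell survival factor BAFF, read 1.08 and 1.05 in the arrays labelled DLC1 and 0.25 and 0.32 in the vector arrays, where it lay below the filter. DCHS1 lay below the filter there too, at 0.26 and 0.23, so both were kept only through the arrays labelled DLC1. The measure favours genes higher under that label, as C3 is.

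The other cell types that could carry complement transcripts were read from fixed marker lists. The summed intensity of 8 measured leukocyte markers was 13.21 and 12.71 in the arrays labelled DLC1 with and without TGF-beta, and 14.38 and 11.35 in the vector arrays. That of 8 hepatocyte markers was 3.0 and 2.87 in the arrays labelled DLC1, and 2.96 and 3.11 in the vector arrays. In both sums the backgrounds overlapped. They also overlapped in the sums of 5 fibroblast markers, at 1.6 and 1.36 in the arrays labelled DLC1 and 1.49 and 1.53 in the vector arrays, and of 6 luminal markers, at 11.99 and 12.32 and at 11.7 and 14.43. The sum of 5 endothelial markers was lower in the arrays labelled DLC1, at 1.75 and 2.01 against 2.37 and 2.16. The sum of 6 markers of the mesenchymal line type was also lower, at 471.91 and 426.98 against 527.91 and 474.86. Of the leukocyte markers 5 were kept, with LAPTM5 the brightest at between 5.4 and 9.53, and of the hepatocyte markers 3 were kept. Single leukocyte markers went both ways. ITGB2, the integrin chain shared by complement receptors, read 3.2 in the array labelled DLC1 against 2.23 in the vector array with TGF-beta, and 4.53 against 2.76 without it, within 2-fold and without overlap of the backgrounds. PTPRC read 0.19 against 0.15 and 0.29 against 0.17, below the filter. LYZ, the lysozyme gene, read 0.17 against 0.4 with TGF-beta and 0.2 against 0.45 without it, past 2-fold, and was kept only through the vector arrays, where it was higher. KDR, an endothelial receptor gene, read 0.47 against 0.96 with TGF-beta and 0.46 against 0.74 without it. The control sets for 18S ribosomal RNA did move with the label, and the 5 prime set read 89.66 and 96.03 in the arrays labelled DLC1 against 70.38 and 53.63 in the vector arrays. The 3 prime set moved less, at 65.54 and 64.46 against 62.52 and 47.88. The log2 gap between the 3 prime and 5 prime sets of ACTB was 3.03 and 3.11 in the arrays labelled DLC1, and 2.83 and 3.26 in the vector arrays, and that of GAPDH was between 0.35 and 0.39. The part of 18S in the differences of C3, CFB and C1S was not tested.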

How the data were processed

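The authors deposited 1 table of probe set intensities on a linear scale for the 4 arrays, with 2 decimals. RMA, a method of background correction, normalization and summarisation, is named without a version per the submitters' processing notes. RMA usually gives log2 values, but the range of these is linear, so log2 was taken here before any difference, and the scale's divisor is unknown. Equalised arrays would hide a change shared by most genes. Symbols came from GEO's annotation of the array: 41097 probe sets have 1 symbol, 1801 have several and 11777 are unnamed here, and the gene identifiers of all 9 members matched the RefSeq table. The members, the gene lists, the size rule and the rule for named genes were chosen with earlier results of these data known. Named genes were the members, DLC1, kept listed genes past 2-fold in a comparison of 2 arrays and the 5 nearest genes to PTX3 and to C3. The brightest 2 other kept genes were also named in the complement and acute phase lists, and the other kept gene, NPTXR, in the pentraxin list. Genes of the marker and housekeeping lists were not named by brightness. The markers VIM, KRT8, ESR1, EPCAM, GATA3, PGR, CDH1, PTPRC, LAPTM5, ITGB2, ALB and TTR fall outside that rule. So do CRP, C5, C3AR1, C1RL, C2, C4BPA, COLEC11, MASP2, SERPINA1 and SERPING1. All of these were named after their values were seen. Alternatives were 2 normalizations, housekeeping centring, a pseudocount of 0.1, 2 other gene summaries, rounding bounds, 2 filters and 2 size rules. No group has a replicate, so no test was run. Python 3.11.15, numpy 2.4.6, pandas 2.3.3 and limma 3.58.1 in R 4.3.3 were used.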

Additional observations from a re-analysis of the deposited data

Results flagged for a closer look

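In the probe set used for each gene, the sign of the TGF-beta difference was opposite in the 2 backgrounds for 3 members. It was below 0 in the arrays labelled DLC1 and above 0 in the vector arrays. The log2 differences were -0.33 and 0.14 for CFB, an interaction of -0.46, and -0.08 and 0.25 for CFI, an interaction of -0.33. For C1S they were -0.06 and 0.06, an interaction of -0.12. With both sets of a gene averaged, the differences were -0.27 and 0.24 for CFB, -0.04 and 0.01 for CFI, and -0.1 and -0.11 for C1S. The dimmer CD46 sets, 207549_x_at and 211574_s_at, also had opposite signs, with interactions of -0.41 and -0.35. Each sign rests on 1 array per state, none reached 2-fold, and the difference between the backgrounds was not tested.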

How the results depend on the processing

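Of 315 recomputed member differences 308 stayed on their side of 2-fold, 7 fell short of it, and no called value changed sign. The calls of C3 and PTX3 held under the alternatives to normalization, centring, pseudocount, gene summary and rounding. C3 ran from 2.0 to 2.07 with TGF-beta and from 2.18 to 2.32 without it, and PTX3 with TGF-beta ran from -1.46 to -1.27 in the arrays labelled DLC1 and from -1.94 to -1.84 in the vector arrays. Without TGF-beta, the 4 members called higher became 2 with 0.1 added before log2 and 2 with the filter at the 75th percentile, 1 with the mean of a gene's probe sets and 1 at 3-fold. With TGF-beta, the 2 called higher became 1 with the mean of a gene's probe sets, 5 at 1.5-fold and 1 at 3-fold. At 3-fold PTX3 was lost in the arrays labelled DLC1 with TGF-beta and in the comparison with vector without TGF-beta, leaving 0 members lower in each. At 1.5-fold 1 member was lower between the backgrounds with TGF-beta. For the other complement genes, counts of 0 became 1 lower with TGF-beta in the vector arrays under housekeeping centring and 2 at 1.5-fold. At 1.5-fold, between the backgrounds, 3 were higher and 1 lower without TGF-beta and 2 were higher with it, and 1 had an interaction above 0. C1S in the vector arrays with TGF-beta was below 0 under housekeeping centring and with the mean of its probe sets. No replicate could be left out, and no paired analysis was possible because each group holds 1 array. Dim values and single arrays limit the sizes for CFI, C1S and the second sets of CFB.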
